A study of Mus musculus with 8 samples.

Results

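Zfp genes, the mouse genes named for a zinc finger protein, were taken as all protein-coding genes of the GENCODE M21 annotation (GRCm38) whose symbol is Zfp followed by a digit, on chromosomes 1 to 19. There were 385 such genes among 20807 protein-coding genes. Each was measured over its window, the gene body with 2 kb on each side. A Zfp gene was called clustered where the next Zfp gene lay within 100 kb and single otherwise, which gave 218 clustered genes in 49 clusters and 167 single genes. Only symbols of this form counted as neighbours, so a gene called single can lie beside a zinc finger gene with another kind of name.

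The study mapped 5-hydroxymethylcytosine (5-hmC) in pro-B cells, the early B-cell progenitors, with and without HDAC7, a class IIa histone deacetylase. The method was hMeDIP-seq, in which sheared DNA that carries 5-hmC is pulled down with an antibody and sequenced. Of the 4 libraries, 2 came from HDAC7-deficient mice (Hdac7 fl/-, with Cre knocked into the mb1 (Cd79a) locus, which is active in the B lineage) and 2 from littermates that the labels call wild-type and the methods give as Hdac7 +/-. The mice were C57BL/6 and 4 to 6 weeks old, and the cells were sorted from bone marrow as B220+ CD43+ IgM-; the labels do not say how many animals stand behind a library, so p-values measure the spread between these 4 libraries. By the genotypes in the methods, both groups carry 1 null copy of Hdac7 in all cells.

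5-hmC is the first product of the TET enzymes when they oxidize methylated cytosine, and in mammals it sits mostly at CpG sites. Most Zfp genes encode C2H2 zinc finger proteins, in which arrays of fingers, each held by 2 cysteines and 2 histidines around a zinc ion, bind DNA. Many also carry a KRAB domain, which recruits the corepressor TRIM28 (KAP1) and through it the histone methyltransferase SETDB1 and HP1 proteins to repress retroelements. These genes multiplied by tandem duplication, so they lie in clusters, and the finger array is usually encoded by the last coding exon alone.

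The sequences shown are of 3 kinds that carry the results. The first is the DNA that encodes a finger, since coverage over these bases was low. The pattern searched in the translated genes was C-2-C-12-H-3-H or C-2-C-12-H-4-H, where the numbers count residues between the cysteines (C) and histidines (H). It was found in 356 of the 385 genes, 3889 times in all, with a median of 10 fingers per gene and at most 33. One finger from the middle of the array is shown for 6 genes, read 5′ to 3′ on the coding strand of GRCm38, with the codons of the cysteines and histidines in capitals. These are Zfp708 (chr13:67070777-67070839, minus strand), Zfp568 (chr7:30023144-30023206, plus), Zfp865 (chr7:5031097-5031159, plus), Zfp57 (chr17:37009763-37009825, plus), Zfp967 (chr2:176531245-176531307, plus) and Zfp969 (chr2:175693395-175693457, minus).

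Zfp708: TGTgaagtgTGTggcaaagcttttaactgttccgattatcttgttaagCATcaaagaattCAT
Zfp568: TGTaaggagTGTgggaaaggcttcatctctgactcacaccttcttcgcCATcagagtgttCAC
Zfp865: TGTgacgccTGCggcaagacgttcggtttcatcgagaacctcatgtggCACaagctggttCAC
Zfp57: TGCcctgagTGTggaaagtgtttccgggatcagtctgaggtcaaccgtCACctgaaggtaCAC
Zfp967: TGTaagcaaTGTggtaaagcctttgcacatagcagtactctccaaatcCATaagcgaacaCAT
Zfp969: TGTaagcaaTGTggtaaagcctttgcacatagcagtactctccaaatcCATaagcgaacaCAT

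The fingers of Zfp967 and Zfp969 were identical, and 4 Zfp genes held this finger base for base. Of 3707 different finger sequences, 103 occurred in more than 1 Zfp gene, and 54 genes shared at least 1. No peak of any library touched the fingers shown for Zfp708, Zfp568, Zfp57, Zfp967 and Zfp969, and that of Zfp865 had 20 bases under a peak in wild-type replicate 2 alone.

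The second kind is DNA under a peak in all 4 libraries, shown with CpG sites in capitals on the gene's strand and chosen as the widest common stretch of 120 to 300 bases outside UTRs. For Zfp36 it lay 151 to 334 bases before the transcription start (chr7:28380404-28380587, minus strand). For Zfp385a (chr15:103324841-103325002, minus) and Zfp568 (chr7:30010390-30010554, plus) it lay in an intron.

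Zfp36: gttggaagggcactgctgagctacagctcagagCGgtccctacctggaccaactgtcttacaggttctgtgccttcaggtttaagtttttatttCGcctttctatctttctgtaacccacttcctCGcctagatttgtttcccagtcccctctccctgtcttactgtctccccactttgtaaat
Zfp385a: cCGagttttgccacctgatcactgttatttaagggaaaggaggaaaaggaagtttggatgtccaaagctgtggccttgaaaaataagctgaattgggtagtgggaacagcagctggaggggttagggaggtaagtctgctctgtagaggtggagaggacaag
Zfp568: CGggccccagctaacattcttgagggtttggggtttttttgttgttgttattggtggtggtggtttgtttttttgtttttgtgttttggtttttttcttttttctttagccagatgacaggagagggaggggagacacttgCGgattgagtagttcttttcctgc

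These stretches held 3, 1 and 2 CpG sites, respectively. The third kind is DNA under a peak in both libraries of 1 genotype with no peak of the other genotype within 300 bases. In Zfp318 such a stretch lay before the gene (chr17:46382942-46383157, plus strand) and had a peak in both HDAC7-deficient libraries. In Zfp217 it lay in a coding exon (chr2:170120006-170120164, minus strand) and had a peak in both wild-type libraries.

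Zfp318: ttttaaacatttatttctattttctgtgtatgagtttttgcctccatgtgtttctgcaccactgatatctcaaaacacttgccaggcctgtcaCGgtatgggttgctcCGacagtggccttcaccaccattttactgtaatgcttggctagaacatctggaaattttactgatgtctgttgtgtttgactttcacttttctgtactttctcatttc
Zfp217: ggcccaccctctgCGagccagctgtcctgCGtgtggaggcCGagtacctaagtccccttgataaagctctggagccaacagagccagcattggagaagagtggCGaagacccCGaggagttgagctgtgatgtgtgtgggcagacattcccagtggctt

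The Zfp318 stretch lay 574 to 789 bases before the transcription start and held 2 CpG sites, and the Zfp217 stretch held 5.

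From here on, 4 values in a row stand for wild-type replicate 1, wild-type replicate 2, HDAC7-deficient replicate 1 and HDAC7-deficient replicate 2, and 2 values for a genotype stand for its replicates 1 and 2. The lists hold between 1305200 and 1414862 peaks with median widths of 146 to 172 bp, and give positions alone, which leaves sequencing depth unknown. Peak lists hold no expression, so the cell type could not be checked against its markers. The window of Hdac7 itself had 17.7%, 14.4%, 11.9% and 16.1% of its bases under peaks, which does not check the deletion, since DNA pulled down for 5-hmC does not measure copy number. HDAC7-deficient replicate 2 stood apart on chromosomes 14 to 19, where peaks covered 11.5% of the protein-coding windows against 10.1% on chromosomes 1 to 13, while each of the other 3 libraries had close values in the 2 groups of chromosomes. Of the Zfp genes, 81 lie on chromosomes 14 to 19, so results are also given for chromosomes 1 to 13 where they differ.

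The first comparison asked whether the share of Zfp window bases under 5-hmC peaks differed between the genotypes. The lists hold no signal height, so a change in the amount of 5-hmC within peaks could not be seen. The authors report similar peak frequencies in both genotypes, but deeper signal over peaks and higher global levels of the mark in the deficient cells. Coverage, the percent of window bases under peaks, overlapped between the genotypes. Peaks covered 8.77%, 10.2%, 8.82% and 9.90% of the merged Zfp windows. The libraries numbered 1 were the low ones in both genotypes. The means were 9.501% ± 1.04 in wild-type and 9.36% ± 0.764 in HDAC7-deficient libraries (SD, n = 2 each), a difference of -0.141 ± 1.29 percentage points (two-sided exact permutation of the genotype labels, 6 arrangements, p = 1, smallest possible 0.333). Divided by the coverage of all protein-coding windows of the same chromosomes, the Zfp windows had 0.916, 0.944, 0.940 and 0.940, a difference of 0.0103 ± 0.0198 (exact permutation test, p = 1). Relative coverage was thus below 1 in each of the 4 libraries, by more than the libraries differed from each other.

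The typical Zfp gene had coverage near that of other protein-coding genes. Median coverage of the 385 genes was 8.60%, 10.6%, 8.74% and 10.2%, against 9.25%, 10.7%, 9.13% and 10.03% for the other 20422 genes. The difference was -0.243 ± 0.360 percentage points (SD over the 4 libraries), with Zfp genes above in 1 of 4 (two-sided exact sign-flip permutation test, p = 0.375, smallest possible 0.125). It was -0.108 without wild-type replicate 1 and -0.389 without HDAC7-deficient replicate 2. The number of peaks per 10 kb was lower in Zfp genes in 4 of 4 libraries, with a mean difference of -0.232 (exact sign-flip permutation test, p = 0.125, adjusted over the 16 comparisons of gene groups 0.25). Against the 40 Zbtb genes, transcription factors with fingers of the same kind that are mostly not in clusters, median coverage of Zfp genes differed by -1.26 percentage points and was lower in 4 of 4 libraries (the same permutation test, p = 0.125, adjusted 0.25). Against the 1128 Olfr genes, the olfactory receptors and the largest clustered family, it differed by -0.274 points and was higher in 1 of 4 libraries (p = 0.25 by the same permutation test). With 4 libraries these sign-flip tests cannot go below 0.125.

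The second comparison, the one the choice of genes was made for, set clustered against single Zfp genes. Over whole windows the order of the 2 groups changed between libraries. The median was 8.58%, 10.7%, 8.73% and 10.8% in clustered genes and 8.63%, 10.4%, 8.81% and 9.78% in single genes. Clustered genes were lower in the libraries numbered 1 and higher in those numbered 2. The difference was 0.289 ± 0.509 percentage points (SD over the 4 libraries, exact sign-flip permutation test, p = 0.5) and its genotype difference was 0.353 ± 0.808 (exact permutation test, p = 1). The difference was 0.0467 without HDAC7-deficient replicate 2 and 0.0359 with a cluster distance of 200 kb. On chromosomes 1 to 13 clustered genes were higher in 4 of 4 libraries, by 0.673 points on average (exact sign-flip permutation test, p = 0.125), and gene bodies without flanks gave -0.190.

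**Figure D1:**
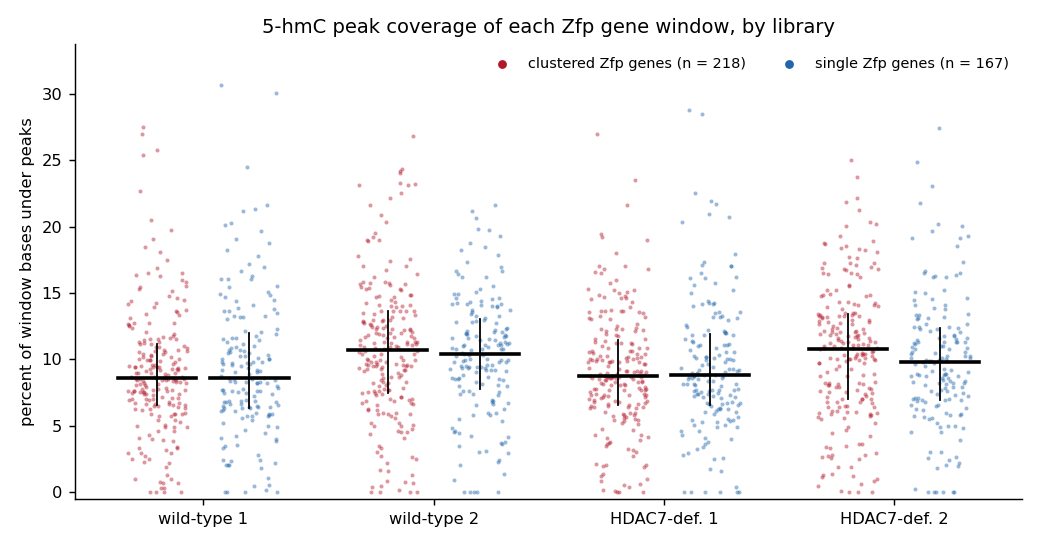
Percent of window bases under peaks (y axis) for each of the 218 clustered (red) and 167 single (blue) Zfp genes in each library (x axis); points are genes, thick lines medians and thin lines the quartiles. The clustered and single genes overlap almost wholly in each library, with medians between 8.58% and 10.8%.

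The parts of the genes differed far more than the whole windows. In the coding bases of the last coding exon, which hold the finger arrays, coverage of Zfp genes was 5.03% on average against 9.72% in other protein-coding genes, and clustered genes were lower than single ones. In the first exon Zfp genes were instead above other genes. All of these held in each of the 4 libraries.

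Over the coding bases of the last coding exon, coverage in Zfp genes was 3.64%, 6.56%, 3.67% and 6.24%. In the other protein-coding genes it was 8.41%, 11.4%, 8.59% and 10.5%. The ranges did not overlap, and the difference was -4.70 percentage points, 0 of 4 libraries above 0 (exact sign-flip permutation test, p = 0.125, adjusted over the 16 comparisons of gene parts 0.133). These bases had 46.0% GC and 21.7 CpG sites per kb in Zfp genes and 51.8% GC and 27.8 CpG sites per kb in other genes; the part of this in the difference was not tested. Short reads cannot be placed with certainty in 50-base words found elsewhere in the genome. The share of such words was 12.6% in these bases of Zfp genes and 12.1% in those of other genes. The share of these bases masked as repeats in the genome sequence was higher in Zfp genes than in other genes. Zfp genes also had more of these bases per gene, with 494321 in 385 genes against 7512825 in 20337 other genes. The part of masked repeats and of exon length in the difference was not tested.

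Clustered genes had 2.31%, 6.14%, 2.18% and 5.67% of these bases under peaks, and single genes 5.84%, 7.26%, 6.12% and 7.16%. The difference of -2.52 points was larger in the libraries numbered 1 (-3.53 in wild-type and -3.93 in HDAC7-deficient) than in those numbered 2 (-1.123 and -1.49), and 0 of 4 libraries were above 0 (p = 0.125 by the same permutation test, adjusted 0.133). Repeated words made up 14.3% of these bases in clustered and 9.85% in single genes. With Zfp genes limited to windows in which under 10% of the words were repeated, the difference was -2.77 points, and that of all Zfp genes from other genes under the same limit was -4.52.

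The bases that encode the fingers themselves had the lowest coverage of any part. In clustered genes 1.71%, 5.87%, 1.90% and 5.29% of them lay under peaks, and in single genes 5.23%, 6.83%, 5.46% and 5.77%. Clustered genes were below single genes in each library, with a mean difference of -2.13 points (exact sign-flip permutation test over the 4 libraries, p = 0.125, adjusted 0.133). The libraries numbered 1 were the low ones in both genotypes, and no label says what a number shares. Of the 356 genes with fingers, 67, 123, 76 and 97 had a peak over finger bases. Only 31 had one in all 4 libraries and 174 had none in any library.

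Named genes had finger bases with and without peaks. All 16 fingers of Zfp708, a repressor of retroelements, had 0 bases under peaks in every library. The same held for Zfp809, which silences retroviruses, Zfp819 and Zfp932, as for 174 of the 356 genes with fingers. The Zfp932 window had 43.9% repeated words, so its value says only that the lists hold no peak there. The windows of Zfp708, Zfp809 and Zfp819 had 4.00%, 7.41% and 6.24%. The finger bases of Zfp568, which represses a placental transcript of Igf2, were at 0%, 4.18%, 0% and 18.6%, so peaks lay there in the libraries numbered 2 alone. Of the 1260 finger bases of Zfp865, on chromosome 7, peaks held 276, 252, 91 and 166, fewer in either HDAC7-deficient library than in either control. In Zfp217, a member of corepressor complexes, 44.6%, 32.9%, 0% and 0.195% of its 513 finger bases lay under peaks. Other genes went the other way, such as Zfp579 (59, 22, 145 and 180 finger bases) and Zfp451 (132, 144, 230 and 326). Genes of either kind were not counted. Over the finger bases of all Zfp genes the genotypes overlapped, at 2.96%, 6.21%, 3.16% and 5.46%.

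**Figure D2:**
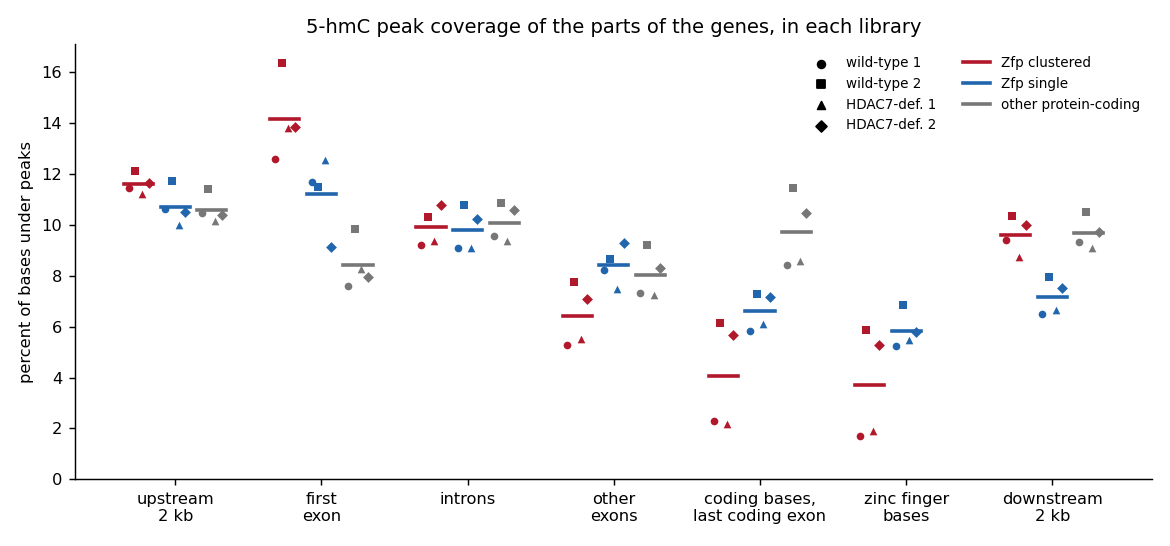
Percent of bases under peaks (y axis) in parts of the genes (x axis) for clustered Zfp (red), single Zfp (blue) and other protein-coding genes (grey); symbols are the 4 libraries and bars their means. In the coding bases of the last coding exon the means fall from 9.72% in other genes to 6.59% in single and 4.07% in clustered Zfp genes, while the first exon has the reverse order.

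The first exon of Zfp genes had 12.1%, 13.8%, 13.1% and 11.4% of its bases under peaks against 7.59%, 9.82%, 8.27% and 7.97% in other genes. Zfp genes were above by 4.19 points and in 4 of 4 libraries, with no overlap of the ranges (exact sign-flip permutation test, p = 0.125, adjusted 0.133). Among them, clustered genes were above single genes by 2.93 points on average and in 4 of 4 libraries (p = 0.125 by the same permutation test). The differences were 0.891, 4.88, 1.25 and 4.71 points, smaller in the libraries numbered 1. First exons of Zfp genes had 65.0 CpG sites per kb and those of other genes 56.7. Those of clustered genes had 59.8 and those of single genes 69.6, the reverse of the order of their coverage. The part of CpG sites in these differences was not tested.

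Around the first exon the differences were smaller. The 2 kb upstream were 0.612 points higher in Zfp than in other genes, and promoters, from 1000 bases before to 100 after the start, 1.08 points higher. Introns differed by -0.256 points. Each of these had the same sign in 4 of 4 libraries, as had the 2 kb downstream, with a difference of -1.118 points. In the 2 kb downstream, clustered genes were higher than single genes, at 9.41%, 10.3%, 8.72% and 9.99% against 6.48%, 7.93%, 6.67% and 7.53%, a difference of 2.46 points with ranges that did not overlap (exact sign-flip permutation test, p = 0.125, adjusted 0.133). Flanks of clustered genes can lie within the window of a neighbour, and 45 Zfp windows overlapped another Zfp window.

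**Figure D3:**
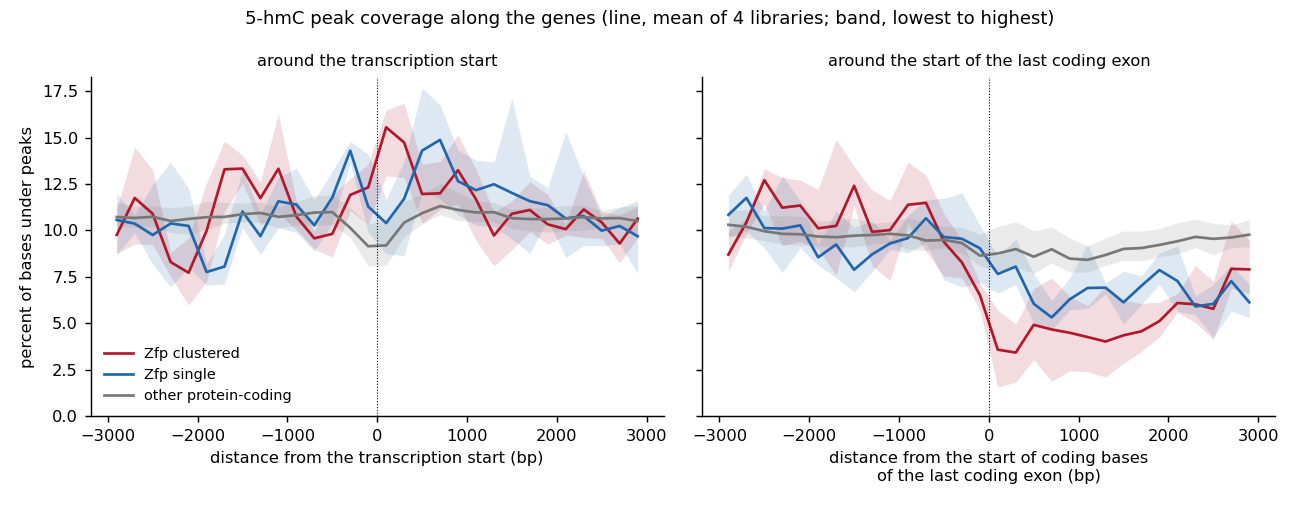
Percent of bases under peaks (y axis) in bins of 200 bp by distance (x axis, bp) from the transcription start (left) and from the start of the coding bases of the last coding exon (right), for clustered Zfp (red), single Zfp (blue) and other protein-coding genes (grey); lines are means of the 4 libraries and bands run from the lowest to the highest. In the first bin of the last coding exon clustered genes lie between 1.57% and 5.71%, and other genes between 7.83% and 10.2%.

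Coverage of clustered genes stepped down at the last coding exon. In clustered genes the 200 bp just before its coding bases had 5.72%, 7.18%, 6.24% and 6.98% of bases under peaks, and the first 200 bp within had 2.46%, 5.71%, 1.57% and 4.61%. In single genes the values were 7.19%, 9.16%, 9.53% and 10.3% before and 6.62%, 8.62%, 7.41% and 7.98% within. The first bins within were lower in each library for both groups. In single genes the next 200 bp had 7.60%, 7.09%, 7.997% and 9.53%, so the fall did not last in wild-type replicate 1. Other protein-coding genes had 8.12%, 9.80%, 8.09% and 8.56% before and 7.99%, 10.2%, 7.83% and 9.01% within. At the transcription start, the first 200 bp of clustered genes had 12.9%, 16.5%, 16.3% and 16.4%, against 8.67%, 10.6%, 9.41% and 8.12% in other genes. The ranges of these 2 groups did not overlap. Single genes had 11.7%, 9.72%, 11.4% and 8.73%, which overlapped other genes and lay below them in wild-type replicate 2.

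Coverage differed widely between clusters. Sets of so few genes can spread more than large groups, and no other sets of equal size were compared. Genes of 1 cluster also differed, with means over the libraries from 3.85% to 23.9% between Zfp553 and Zfp689 on chromosome 7. The 11 clusters of 6 or more genes hold 111 genes. The highest was on chromosome 7 (chr7:4915217-5053723), with Zfp628, Zfp579, Zfp524, Zfp865, Zfp784 and Zfp580. Its windows had 21.9%, 18.8%, 18.5% and 19.9% of bases under peaks, while the other protein-coding windows of the chromosome had 10.8% on average. The lowest was on chromosome 4 (chr4:147492417-147848366), from Zfp982 to Zfp933, with 4.82%, 3.56%, 7.76% and 4.77% against a mean of 10.02% on the rest of the chromosome. Its windows had a median of 43.3% repeated words, against 2.28% in the highest cluster, and 4.89 against 25.7 CpG sites per kb; their part in the difference was not tested.

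The largest cluster, 23 genes on chromosome 13 (chr13:67038596-67827002) from Zfp712 to Zfp273, includes Zfp708 and the genes Zfp457 to Zfp459. It had 7.03%, 8.61%, 7.75% and 8.98%, below the rest of its chromosome (9.10%, 10.6%, 8.97% and 9.93%) in each library. The cluster on chromosome 17 from Zfp871 to Zfp563 was also below the rest of its chromosome in each library, with a mean of 9.41% against 10.6%. Of the other 5 clusters on chromosome 7, 4 were above the rest of the chromosome in each library, from Zfp787 to Zfp28 at a mean of 13.97% down to Zfp84 to Zfp146 at 11.7%, while the cluster from Zfp180 to Zfp94 was below it in 2 libraries. The cluster on chromosome 6 from Zfp786 to Zfp746 was above the rest of its chromosome in each library (11.6% against 9.69%), and that on chromosome 17 from Zfp677 to Zfp994 was below in 2. Of the 385 genes, 92 lie on chromosome 7, 74 of them clustered. Just inside the limit of 100 kb lay Zfp263 (96477 bp from the next Zfp gene), Zfp972 (97670 bp) and the neighbours Zfp605 and Zfp932 (99680 bp). Just outside it lay Zfp715 and Zfp936 (104087 bp). Coverage of Zfp263 was 11.5%, 15.7%, 13.1% and 12.05%, and that of Zfp972 0.339%, 2.52%, 1.00% and 0.483%. Coverage of Zfp605 was 8.96%, 12.06%, 12.3% and 15.5%, and that of Zfp932 1.91%, 4.36%, 6.85% and 3.66%. Zfp715 had 13.3%, 11.5%, 12.9% and 11.4%, and Zfp936 10.7%, 5.36%, 11.3% and 5.81%.

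**Figure D4:**
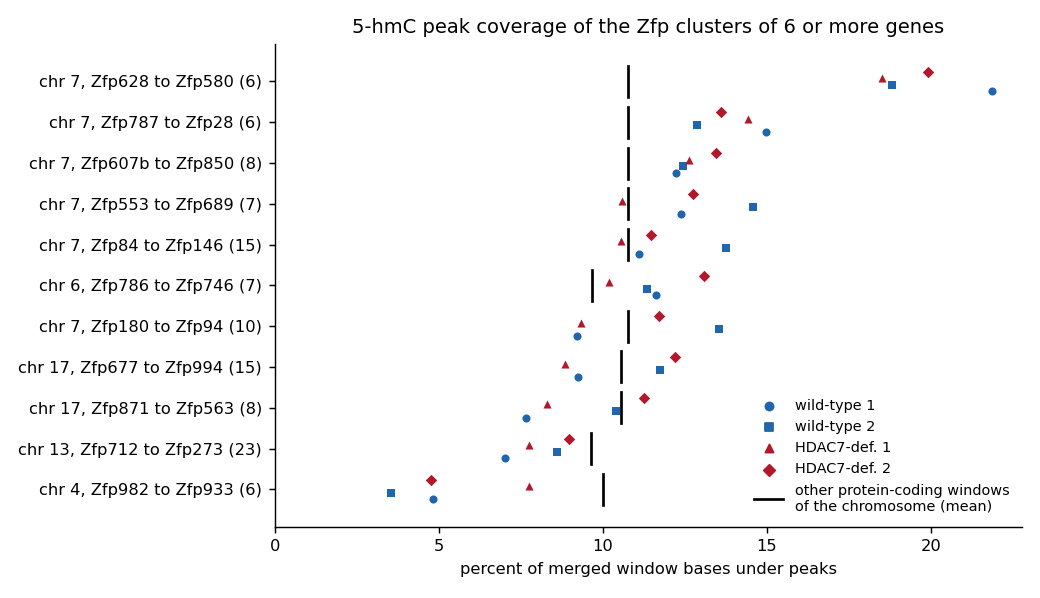
Percent of merged window bases under peaks (x axis) in each cluster of 6 or more Zfp genes (y axis, with its first and last gene and the number of genes); symbols are the 4 libraries and black bars the mean of the other protein-coding windows of that chromosome. The chromosome 7 cluster from Zfp628 to Zfp580 lies between 18.5% and 21.9%, and the chromosome 4 cluster between 3.56% and 7.76%.

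Coverage of single windows spanned a wide range. A peak was present in all 4 libraries in 374 of the 385 genes. Among windows of at least 10 kb, the highest clustered genes were Zfp579 (mean of the 4 libraries 23.1%), Zfp865, Zfp692, Zfp628 and Zfp646, and the highest single genes were Zfp385a (21.8%), Zfp574, Zfp957, Zfp467 and Zfp710. Zfp385a, whose product binds RNA, was even across libraries, with 20.1%, 21.2%, 20.95% and 24.8%. All 10 of these windows had between 0.181% and 5.24% repeated words.

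At the other end, 6 genes had no peak in any library, and each of their windows had over 90% repeated words. The 3 lowest single genes, Zfp966, Zfp967 and Zfp969, and the clustered genes Zfp965 and Zfp968 all lie on chromosome 2 and consisted wholly of repeated words (100%). The windows of Zfp967 and Zfp969, 15424 bases each, did not differ at a single base, so reads from one cannot be told from reads from the other. Next among the lowest clustered genes, Zfp534 on chromosome 4 had 86.9% repeated words and 3 peaks, all in wild-type replicate 2. Of the 11 genes without a peak in every library, 10 had over 50% repeated words. A value of 0 in these windows says only that the lists hold no peak there.

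Repeated words were more frequent in clustered genes, with a median of 6.39% of a window against 3.17% in single genes. Among genes under 5%, median coverage was 9.41%, 12.3%, 9.70% and 12.03% in 92 clustered genes and 9.70%, 11.03%, 9.29% and 10.4% in 114 single genes. Among genes at 10% or more it was 7.09%, 7.57%, 7.21% and 7.63% in 73 clustered and 6.55%, 8.45%, 7.08% and 7.13% in 33 single genes. Coverage was lower in the repeated windows of both groups, and the same was seen outside the family. Other protein-coding genes had 9.75%, 11.1%, 9.61% and 10.3% under 5% and 7.31%, 8.68%, 7.23% and 8.11% at 10% or more. As a description, Spearman's rho was taken across the 385 genes, which share their libraries and base composition. Its values for coverage were -0.342 to -0.308 with repeated words, 0.211 to 0.408 with GC content and -0.0117 to 0.0673 with finger number. Across all protein-coding genes they were -0.216 to -0.150 with repeated words and 0.127 to 0.343 with GC content.

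**Figure D5:**
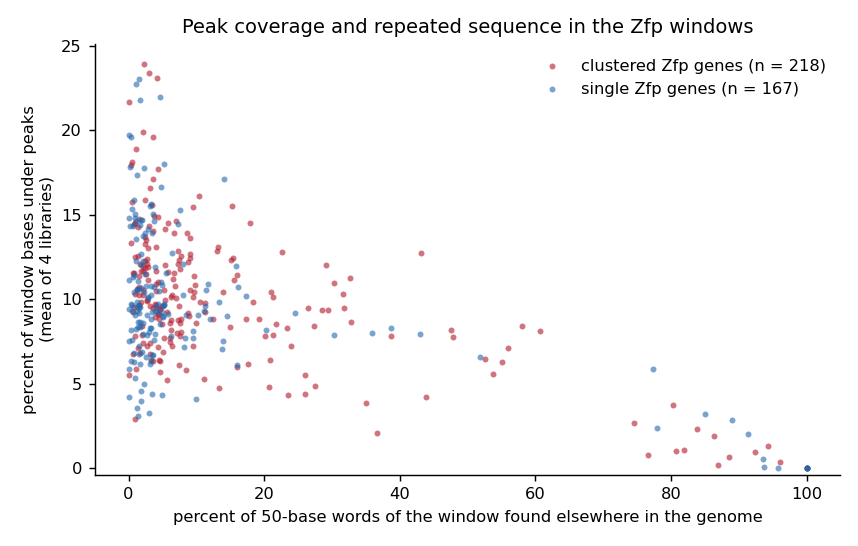
Mean percent of window bases under peaks over the 4 libraries (y axis) against the percent of 50-base words of the window that occur elsewhere in the genome (x axis), with clustered genes in red and single genes in blue. The 5 windows with 100% repeated words lie at 0, and the 5 highest clustered and 5 highest single windows of at least 10 kb lie at or below 5.24%.

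The third comparison looked for single Zfp genes that differed between genotypes. No test was run gene by gene, since an exact permutation of 2 against 2 libraries cannot go below 0.333, and a gene was counted instead where both HDAC7-deficient libraries lay above, or below, both wild-type libraries. By number of peaks, 56 Zfp genes were higher (14.5%, against 11.7% of all protein-coding genes) and 42 lower (10.9%, against 11.1%). By peak bases, 50 were higher (12.99%, against 10.6%) and 56 lower (14.5%, against 17.8%). By both measures 21 were higher (5.45%, against 4.16%) and 25 lower (6.49%, against 5.85%). All these shares were near those of protein-coding genes at large and are no result about Zfp genes. On chromosomes 14 to 19, where HDAC7-deficient replicate 2 was raised, 19.8% of Zfp genes were higher by number, against 14.2% of all protein-coding genes there. On chromosomes 1 to 13 the shares were 13.2% of Zfp genes and 10.9% of all protein-coding genes. Of clustered genes 35 (16.1%) and of single genes 21 (12.6%) were higher by number, and the difference was not tested.

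Among genes higher by both measures, the gap between genotypes was widest in Zfp637, Zfp41, Zfp651, Zfp867 and Zfp941. Peaks covered 1.29%, 4.09%, 10.05% and 10.03% of the Zfp637 window, from 1, 3, 4 and 4 peaks. Coverage of Zfp41 was 6.78%, 5.98%, 10.4% and 15.1%. Coverage of Zfp651 was 10.1%, 7.59%, 14.2% and 13.4%. The values rest on few peaks, and none of these windows was tested.

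Among genes lower by both measures, the gap was widest in Zfp593, Zfp217, Zfp251, Zfp740 and Zfp683. Zfp593 had 6, 1, 0 and 0 peaks in a window of 6304 bases. In the Zfp217 window, of 43461 bases, coverage was 12.3%, 12.8%, 7.27% and 5.48%, from 40, 33, 26 and 15 peaks. Coverage of Zfp683, which encodes Hobit, a factor of tissue-resident lymphocytes, was 19.04%, 16.7%, 12.6% and 9.23%.

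Genes with roles in blood cells were of interest because the cells are B-cell progenitors. Of 11 listed, by peak bases 3 were higher in both HDAC7-deficient libraries (Zfp318, Zfp36l1 and Zfp91) and 2 lower (Zfp217 and Zfp335), where 10.6% and 17.8% of all protein-coding genes were. By number of peaks 1 was higher (Zfp318) and 2 lower (Zfp217 and Zfp335). Zfp318 and Zfp91 lie on chromosomes 17 and 19, where HDAC7-deficient replicate 2 was raised, and the part of this was not tested. Zfp318, which controls the splicing that lets mature B cells make IgD, had 15, 19, 28 and 35 peaks over 6.10%, 7.65%, 8.11% and 11.6% of its window. Peaks covered 11.8%, 14.6%, 8.86% and 6.52% of Zfp335, a factor of T-cell maturation. Zfp521 and Zfp423, cofactors that bind the B-cell factor EBF1, did not separate the genotypes over the whole window. Coverage was 8.58%, 11.8%, 7.64% and 10.03% for Zfp521 and 9.77%, 12.7%, 10.1% and 9.68% for Zfp423. Over their finger bases both HDAC7-deficient libraries lay below both wild-type libraries. Peaks held 118, 241, 0 and 6 finger bases in Zfp521 and 161, 191, 18 and 102 in Zfp423. Genes of this kind were not counted. Zfp36, whose product speeds the decay of cytokine mRNAs, was among the most covered of all protein-coding windows (percentile 98.98 by mean coverage) with 30.7%, 13.7%, 28.5% and 19.3% of 7470 bases. Its 2 libraries of a genotype differed more than the means of the genotypes did.

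Of 9 listed genes with roles in imprinting, retroelements or pluripotency, by peak bases 3 were higher (Zfp57, Zfp445 and Zfp809) and 1 lower (Zfp819), against 10.6% and 17.8% of all protein-coding genes. By number of peaks 2 were higher (Zfp57 and Zfp708) and none lower. Zfp57 lies on chromosome 17, with the raised HDAC7-deficient replicate 2. Zfp57, which keeps methylation at imprinted regions, had coverage of 4.94%, 5.99%, 7.66% and 8.93%, from 3, 4, 8 and 6 peaks. Zfp445, which has a like role, had 5.26%, 9.66%, 9.78% and 12.2%. Zfp42 (REX1), a marker of pluripotent cells, had low coverage, from 2.02% to 5.64%. Of the 11 listed developmental and long genes, none separated the genotypes by either measure.

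The genes of the machinery that KRAB zinc finger proteins recruit were measured the same way. All 15 were found, and by peak bases 3 were higher in both HDAC7-deficient libraries (Dnmt1, Mphosph8 and Uhrf1) and 1 lower (Cbx3, an HP1 gene), beside the same 10.6% and 17.8% of all protein-coding genes. By number of peaks 2 were higher (Dnmt1 and Pphln1) and 2 lower (Atf7ip and Cbx3). Mphosph8, Uhrf1 and Pphln1 lie on chromosomes 14, 17 and 15, where HDAC7-deficient replicate 2 was raised. With lists this short, counts of this size say nothing particular to them. Coverage of Trim28 was 12.3%, 9.24%, 10.4% and 8.96%, and that of Setdb1 6.21%, 14.6%, 6.95% and 11.8%. The genotypes overlapped in both genes.

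The last comparison followed single regions, the merged union of peaks of the 4 lists that share at least 1 base. Zfp windows held 14313 regions, of which 1681 (11.7%) had a peak in all 4 libraries and 55.6% in only 1. Of these regions, 418 (2.92%, against 2.82% in all protein-coding windows) were gained, that is present in the HDAC7-deficient pair and absent from the wild-type pair, and 348 (2.43%, against 2.52%) were lost, the reverse. Clustered genes had 167 gained and 106 lost regions, a ratio of 1.58, and single genes 251 and 242, a ratio of 1.04, while all protein-coding windows had 1.117 and Olfr windows 1.604. On chromosomes 1 to 13 the ratio in clustered genes was 1.575 (126 and 80 regions) and on chromosomes 14 to 19 it was 1.577 (41 and 26). With peaks of at least 200 bp alone, clustered genes had 80 gained and 77 lost regions, a ratio of 1.04. Single genes then had 165 and 167, a ratio of 0.988. The ratio of all protein-coding windows was not computed for wide peaks, so clustered genes cannot be set against it there. Leaving out 1 library changes what counts as gained, and these counts have no test.

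Of the 385 genes, 198 (51.4%, against 53% of all protein-coding genes) held a gained region and 168 (43.6%, against 51.8%) a lost one. Both kinds were held by 101 genes. Zfp windows had a median of 21371 bp against 21629 bp, but an upper quartile of 32570 bp against 49616.5 bp. Longer windows can hold more regions, and the part of length in these shares was not tested. A lost region was held by 36.2% of clustered and 53.3% of single genes, whose median windows were 19632.5 and 25165 bp. The widest gained region was 889 bp in an intron of Zfp597 (chr16:3869506-3870394), with peaks of 596 and 857 bp in HDAC7-deficient replicates 1 and 2. The widest lost region was 742 bp in an intron of Zfp697 (chr3:98384251-98384992), with peaks of 227 and 742 bp in wild-type replicates 1 and 2. A gained region of 826 bp overlapped an exon of Zfp574 (chr7:25078777-25079602). The most gained regions, 15, lay in Zfp804b, which also held 9 lost ones in a window of 579747 bases. Zfp637, with the widest gap among genes higher by both measures, held no gained region.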

How the data were processed

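Each of the 4 hMeDIP-seq libraries is a list of peak start and end positions (GRCm38/mm10), as deposited, with no other value or score. The labels name Trim Galore 0.4.2, cutadapt 1.6, Bowtie2, deepTools and MACS2; the methods name bwa for mapping. The authors called peaks per library with bdgpeakcall (minimum length 10 bp, maximum gap 10 bp) on RPKM signal and removed peaks met in the input; whether before deposit is not stated. The 4 input libraries were not analysed here. Depth is unknown, so no counting interval is given.

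Peaks were counted by any overlap, and bases within the window, with Python 3.11.15, NumPy 2.4.6, pandas 2.3.3, SciPy 1.17.1, numba 0.67.0 and Biopython 1.88. Gene parts and fingers came from the transcript with the longest coding sequence. Words of 50 bases were taken every 20 bases and counted on both strands of the genome. Single values were compared by exact permutation over libraries, in 6 splits or 16 sign flips. Code was tested on simulated data. Named genes were fixed lists, the highest and lowest windows of at least 10 kb, the widest gaps between genotypes and clusters of 6 or more genes. The genes, lists and comparisons were chosen with earlier results of these data known.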

Additional observations from a re-analysis of the deposited data

How the results depend on the processing

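The differences in the parts of the genes (last coding exon, zinc finger bases, first exon and downstream 2 kb) kept their sign with peaks of at least 200 bp, on chromosomes 1 to 13, without each library in turn and with windows under 10% repeated words, all chosen after seeing the data. The sign-flip test used cannot go below 0.125 with 4 libraries, so no call could be kept or lost. Coverage of clustered minus single genes was not stable: it was -0.190 percentage points for gene bodies without flanks and -0.0713 for pooled bases, against 0.289, and 0.0359 with a cluster distance of 200 kb. In peaks per 10 kb the main difference, -0.0562, became 0.143 with peaks of at least 200 bp, 0.146 on chromosomes 1 to 13, 0.0397 with under 10% repeated words and 0.177 for windows of 10 to 50 kb. Zfp against other genes became 0.0445 with peaks of at least 200 bp. That width left 33 Zfp genes higher by number (6.06% of all protein-coding genes were) and 245 gained regions, 80 in clustered and 165 in single windows; flanks of 10 kb gave 160 lost regions in clustered windows. The causes were not tested, beyond fewer peaks or more bases counted.

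Without 1 library the genotype difference of coverage ranged from -0.877 to 0.594 and was above 0 without wild-type replicate 2 (0.594) or HDAC7-deficient replicate 1 (0.399); relative to all windows it ranged from -0.00364, without wild-type replicate 1, to 0.0243. The genotype difference of clustered minus single ranged from -0.196, without HDAC7-deficient replicate 2, to 0.902. Clustered minus single coverage ranged from 0.0467, without HDAC7-deficient replicate 2, to 0.413, and Zfp against other genes from -0.389, without HDAC7-deficient replicate 2, to -0.108, without wild-type replicate 1. Clustered minus single in peaks per 10 kb ranged from -0.130 to 0.0236, above 0 without HDAC7-deficient replicate 1. With 3 libraries a call needs less: 100 to 143 genes were higher and 67 to 123 lower by number, and 82 to 140 higher and 98 to 164 lower by bases. These counts stand without the share of all protein-coding genes under the same setting, so they are no result about Zfp genes. Gained regions ranged from 849 to 2506 (clustered 315 to 874, single 534 to 1632) and lost ones from 698 to 3176 (clustered 227 to 1072, single 471 to 2104); among these, gained exceeded lost only without an HDAC7-deficient library, when gained needs 1 peak alone.

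Deviations of libraries with the same number correlated at 0.109 across genes, equal for both pairs by construction, so the numbers are not shown to pair the libraries. With the replicate block the genotype difference was -0.141 (sign-flip permutation, p = 1), 0.0103 relative to all windows, and 0.353 for clustered minus single. That test flips only the difference within each replicate number, too few for any call to be kept or lost.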
